A study of Homo sapiens with 8 samples.

Results

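The genes described here are 10 components of the restriction point switch of the cell cycle: the D cyclins CCND2 and CCND3, their kinases CDK4 and CDK6, the kinase inhibitors CDKN1B, CDKN2C and CDKN2D, and the RB family RB1, RBL1 and RBL2. They were selected by gene symbol, each symbol belonged to 1 gene identifier, and all 10 were among the 16608 genes counted in all 8 libraries and among the 16320 genes tested. The cells were SupB15, an established human line of Ph+Pre-B-ALL, a precursor B cell leukemia with the Philadelphia chromosome. There were 4 groups of 2 libraries: a DMSO control of 46 h, cells exposed to 2 µM 1035 over the same 46 h, cells exposed to 0.1 µM doxorubicin over 10 h, and cells that had 36 h of 1035 and then 10 h of doxorubicin, each at the dose just named (the combination). All groups were grown in IMDM with serum. The series title speaks of an HDAC (histone deacetylase) inhibitor, the place 1035 takes in the labels. Doxorubicin, an anthracycline, poisons topoisomerase II and so breaks DNA. The line is 1 leukemia, so the libraries do not sample different patients. Length of exposure differed between the DMSO group and the doxorubicin group, so it cannot be told apart from the drug. The combination (36 h of 1035, then 10 h of doxorubicin) also differed in exposure from the group with 46 h of 1035. It differed likewise from the group with only 10 h of doxorubicin. Comparisons between these groups, or built from them, carry this difference too. The labels do not say if 1035 was washed out before doxorubicin was added.

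In this pathway a D cyclin binds CDK4 or CDK6, and the complex adds phosphate to the RB family proteins, which in their unmodified form hold E2F transcription factors in check. CDKN2C (p18-INK4C) and CDKN2D (p19-INK4D) bind CDK4 and CDK6 and keep D cyclins off them, whereas CDKN1B (p27-KIP1) binds whole cyclin and kinase complexes, above all those with cyclin E. In precursor B cells cyclin D3 is the D cyclin needed for the expansion of pre-B cells, and cyclin D2 is best known as a target of growth factor and mitogen signals. Levels are CPM, read counts scaled to a common library size by TMM normalization, and levels of different genes are compared only as CPM per kilobase, with the gene length implied by the deposited counts and FPKM values. Tests are edgeR's quasi-likelihood test with adjustment over all genes at an FDR of 5%. In bulk RNA, fewer cells of a kind and less RNA per cell cannot be told apart.

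Reads on the shared genes numbered from 11760542 to 18144670 per library. The 10 markers of precursor B cells summed to 3967 to 4274 CPM in the 4 libraries without 1035 and 2932 to 3117 CPM in the 4 with it. They went both ways in 1035 against DMSO, with 3 higher, 6 lower and 1 that did not pass. Over all genes tested, 24.2% were higher and 24.8% lower in this comparison. The log2 fold change was -1.80 for IGLL1 and -0.88 for DNTT, and 0.80 for CD22, 0.43 for CD79A and 0.31 for CD79B. Of 6 markers of T and NK cells, 1 had counts in all 8 libraries (9.64 to 11.8 CPM over all libraries), and of 4 erythroid markers none had. The 4 measured of 6 myeloid markers summed to 23.8 to 27.5 CPM without and 33.0 to 39.7 CPM with 1035, and the 2 measured of 5 stromal markers to 25.8 to 30.3 and 64.6 to 71.2 CPM. In 1035 against DMSO, 2 of these myeloid markers were higher, 1 was lower and 1 did not pass. PDGFRB held most of the stromal sum, at a mean of 26.4 CPM in DMSO and 66.2 in 1035. MALAT1, a nuclear RNA, held 0.249% to 0.414% of reads without and 0.544% to 0.803% with 1035, and the MT- genes 0.145% to 0.258% and 0.185% to 0.258%. The part of these shifts in the results below was not tested.

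After 1035 the set changed in both directions. Against DMSO, CCND2 and CDKN2D rose, CCND3, CDK4, CDKN2C, RB1 and RBL1 fell, and CDK6, CDKN1B and RBL2 did not pass the test. Thus 2 of 10 members were higher, where 24.2% of all genes tested were, and 5 of 10 were lower, where 24.8% of all genes were. The count of 2 higher was 1 with DESeq2, without the second DMSO library and without the second 1035 library, since CDKN2D then missed the threshold. The median log2 fold change of the 10 members was -0.20, against 0.01 over all genes. In CPM, all 4 libraries given 1035 lay above all 4 others for CCND2, CDKN1B and CDKN2D (24.5% of all genes showed this) and below all 4 others for CCND3, CDK4, CDKN2C, RB1 and RBL1 (24.7% of all genes). CDK6 and RBL2 were the 2 members whose ranges overlapped.

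**Figure D1:**
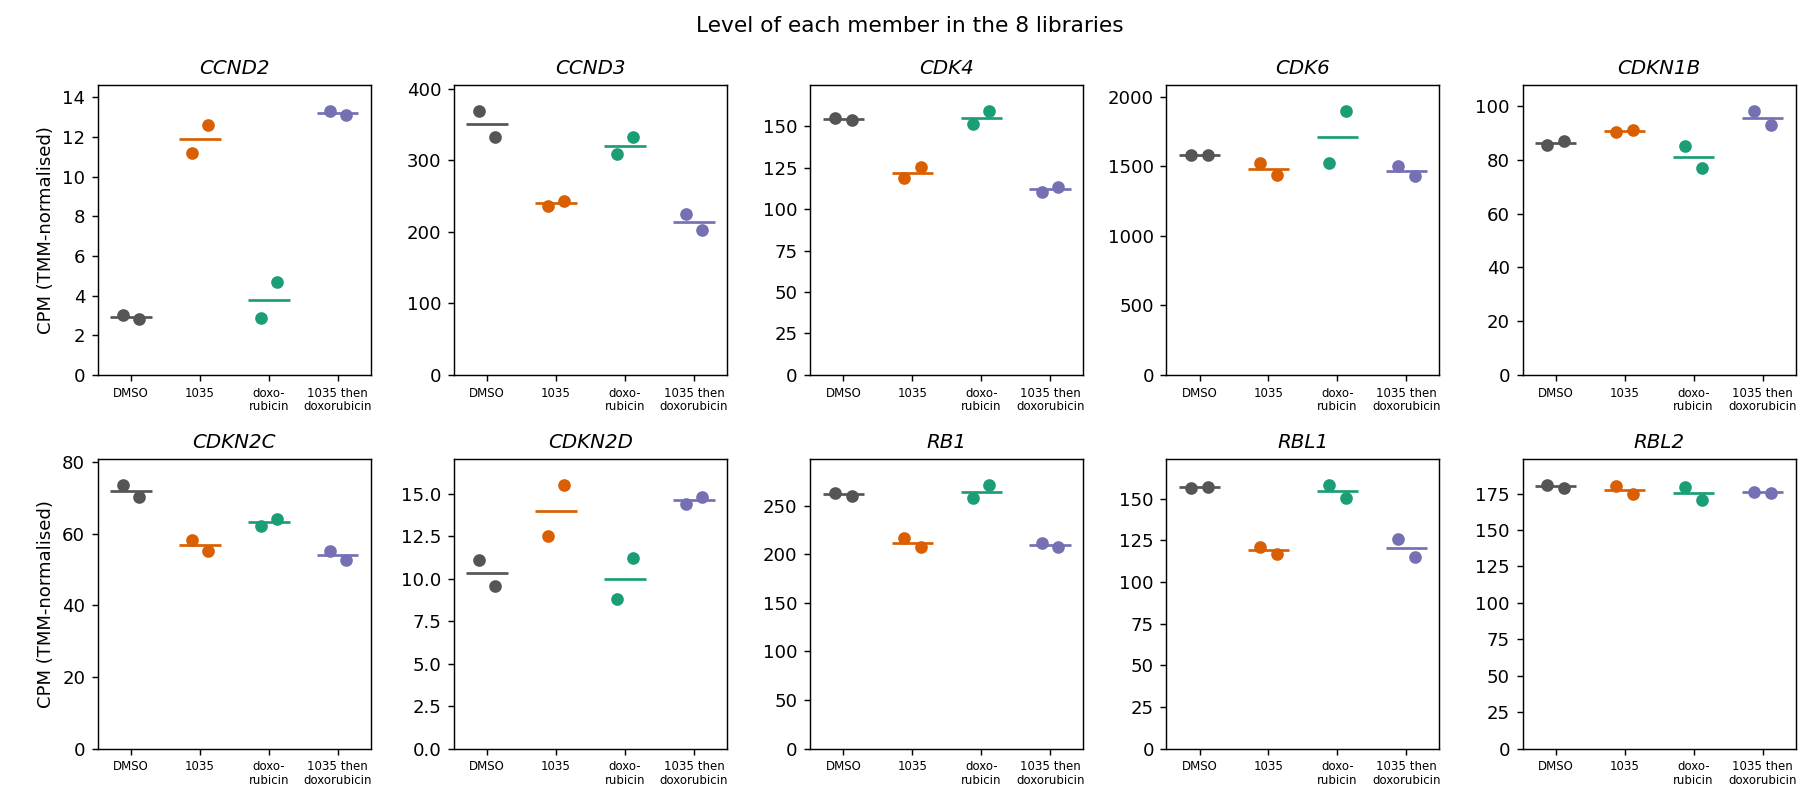
Level of each of the 10 members in CPM (TMM-normalised, linear axes from 0) in the 8 libraries. Points are libraries and lines are the means of 2. CCND2 stood at 2.84 to 4.69 CPM without 1035 and 11.2 to 13.3 CPM with it, and CDK6 had its highest value, 1897 CPM, in the second doxorubicin library.

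The D cyclins moved in opposite directions. CCND2 measured 3.0 and 2.84 CPM in DMSO, 11.2 and 12.6 in 1035, 2.85 and 4.69 in doxorubicin, and 13.3 and 13.1 in the combination. The 4 libraries given 1035 were all higher than the 4 others, and the second doxorubicin library was the highest of those without it. These levels rest on 43 to 58 reads per library without 1035 and 155 to 175 with it. CCND2 was 4.06-fold higher in 1035 than in DMSO (log2 fold change 2.02 ± 0.18, SE; adjusted p = 3.38e-12) and 3.63-fold higher in the combination than in doxorubicin (1.86 ± 0.17; adjusted p = 9.73e-12).

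CCND3 measured 368.6 and 332.6 CPM in DMSO, 235.8 and 243.8 in 1035, 308.9 and 332.2 in doxorubicin, and 225.6 and 202.4 in the combination. The groups with and without 1035 did not overlap, and the lowest library was the second of the combination. CCND3 fell to 0.684 of the DMSO level (log2 fold change -0.55 ± 0.06; adjusted p = 1.56e-09) and, in the combination, to 0.668 of the doxorubicin level (-0.58 ± 0.06; adjusted p = 6.08e-10). In the authors' deposited table the log2 fold changes after 1035 were 1.94 for CCND2 and -0.55 for CCND3.

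The change in opposite directions did not exchange the leading D cyclin. Per kilobase, CCND3 stood at 66.1 ± 4.79 (SD, n = 2) CPM in DMSO and CCND2 at 0.407 ± 0.0150. After 1035 the levels were 45.2 ± 1.07 for CCND3 and 1.66 ± 0.135 for CCND2, and in the combination 40.3 ± 3.09 and 1.84 ± 0.0158. The share of CCND2 in the sum of both was 0.598% and 0.629% in DMSO, 0.680% and 1.03% in doxorubicin, 3.41% and 3.69% in 1035, and 4.18% and 4.59% in the combination. CCND3 thus held nearly all of the per-length sum of both cyclins in every library. This sum itself was 58.6 to 69.9 CPM per kilobase without 1035 and 40.0 to 47.7 with it, with no overlap.

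The third D cyclin, CCND1, was named after its values were seen. It measured 0.765 and 0.529 CPM in DMSO and 2.09 and 3.25 in 1035, on 8 to 40 reads per library over all 8. It rose against DMSO (log2 fold change 2.01 ± 0.38; adjusted p = 2.15e-05), and in the combination against doxorubicin it did not pass (0.81 ± 0.36; adjusted p = 0.067).

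**Figure D2:**
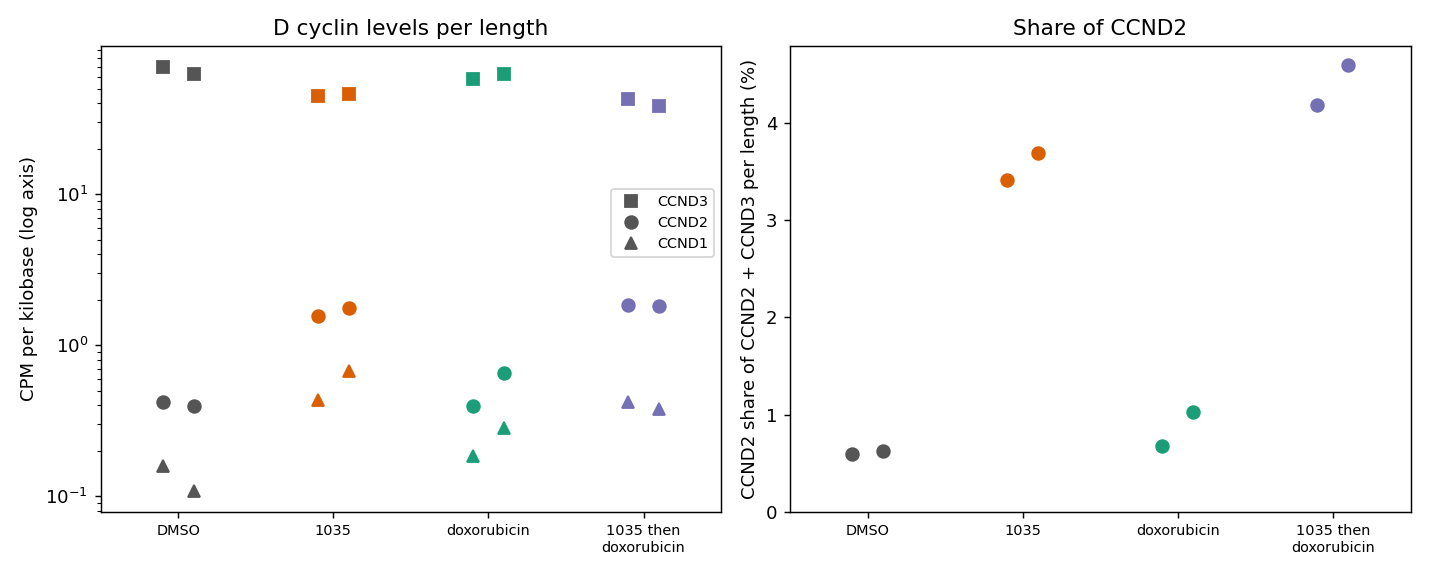
Left: CPM per kilobase of CCND3 (squares), CCND2 (circles) and CCND1 (triangles) in each library, on a log axis. Right: the percentage of CCND2 in the per-length sum of CCND2 and CCND3, on a linear axis from 0, with 2 libraries per group. CCND2 rose from 0.598% and 0.629% in DMSO to at most 4.59% in the combination, and CCND3 stayed the higher of the pair in all 8 libraries.

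The genes whose profile over the 8 libraries came closest to that of CCND2, out of 10118 genes with a mean of at least 10 CPM that are not members, were AL583828.1, RAB37 and AK1. Their root mean square differences in centred log2 CPM were 0.170, 0.182 and 0.193. For CCND3 the closest were EFEMP1 (0.0472), MYLK (0.0510) and RBX1 (0.0522). EFEMP1 ranged from 249.2 to 271.5 CPM without 1035 and from 157.6 to 179.8 with it.

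The kinases differed from each other. CDK4, which with CDK6 carries the activity of the D cyclins, measured 155.2 and 153.6 CPM in DMSO, 118.7 and 125.3 in 1035, 151.1 and 159.0 in doxorubicin, and 110.3 and 113.4 in the combination. The libraries with and without 1035 did not overlap. CDK4 fell by 0.34 on the log2 scale after 1035 (SE 0.06; adjusted p = 8.86e-06) and by 0.47 in the combination against doxorubicin (SE 0.06; adjusted p = 2.78e-08).

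The CDK4 promoter is shown because it holds a repeated E-box, the site bound by MYC and related factors. In the 250 bases before the annotated start (RefSeq, GRCh38.p14, chr12:57752311-57752560, minus strand), the E-box CACGTG, which reads the same on both strands, occurred 3 times and is in capitals.

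CDK4: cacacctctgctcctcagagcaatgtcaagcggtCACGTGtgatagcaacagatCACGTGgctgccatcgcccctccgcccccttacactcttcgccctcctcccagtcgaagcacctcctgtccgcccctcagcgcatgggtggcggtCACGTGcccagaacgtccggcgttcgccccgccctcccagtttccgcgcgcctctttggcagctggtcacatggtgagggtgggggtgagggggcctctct

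The matches began 216, 196 and 101 bases before the start. Of 35116 promoter windows of this length in the RefSeq set, several of which can belong to 1 gene, 6.34% held CACGTG and 0.0797% held it at least 3 times. MYC itself fell by 0.31 on the log2 scale after 1035 (SE 0.06; adjusted p = 2.4e-05). The match is a description of the sequence and no binding was measured. A link of the motif, or of MYC, to the fall of CDK4 was not tested.

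CDK6 was the most abundant member per length, at 128.9 CPM per kilobase in DMSO. It measured 1581 and 1585 CPM in DMSO, 1528 and 1442 in 1035, 1522 and 1897 in doxorubicin, and 1504 and 1429 in the combination. The second doxorubicin library stood above the other 7, which lay within 1429 to 1585 CPM, and the ranges with and without 1035 overlapped. Against DMSO, CDK6 did not pass after 1035 (log2 fold change -0.09 ± 0.08; adjusted p = 0.344).

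In the combination against doxorubicin CDK6 passed as lower (log2 fold change -0.22 ± 0.08; adjusted p = 0.0249), but without the second doxorubicin library the value was -0.05 (adjusted p = 0.592). It also missed the threshold, with values of about the same size, without the first (-0.25; adjusted p = 0.091) or the second (-0.18; 0.219) combination library, with the minimum mean count raised to 50 (-0.20; 0.0777) and in DESeq2 (-0.23; 0.137). In the authors' deposited table its adjusted p in this comparison was 0.343. As a share of the per-length sum of CDK4 and CDK6, CDK6 made up 72.2% to 75.5% without 1035 and 74.8% to 77.9% with it, ranges that overlap.

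The inhibitors of CDK4 and CDK6 moved apart. CDKN2C measured 73.6 and 70.3 CPM in DMSO, 58.2 and 55.3 in 1035, 62.2 and 64.1 in doxorubicin, and 55.2 and 52.8 in the combination. Both DMSO libraries were the highest and the doxorubicin libraries lay between them and those given 1035. CDKN2C fell after 1035 (log2 fold change -0.34 ± 0.07; adjusted p = 0.000112). In the combination against doxorubicin the difference was -0.22 ± 0.07 (adjusted p = 0.0117), and it missed the threshold without the second doxorubicin library (adjusted p = 0.0534) or the second combination library (0.108). In the authors' deposited table the adjusted p of CDKN2C in this comparison was 0.121.

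CDKN2D measured 11.1 and 9.59 CPM in DMSO, 12.5 and 15.5 in 1035, 8.79 and 11.2 in doxorubicin, and 14.4 and 14.8 in the combination, on 139 to 191 reads per library. All libraries with 1035 were above all without, by a margin of 11.2 to 12.5 CPM at the closest. CDKN2D rose after 1035 (log2 fold change 0.43 ± 0.13; adjusted p = 0.0075), but not in DESeq2 (adjusted p = 0.0795) nor without the second DMSO library (0.102) or the second 1035 library, where the value was 0.27 (adjusted p = 0.188). In the combination against doxorubicin CDKN2D rose by 0.57 ± 0.14 (adjusted p = 0.000704), a call that ended without the first doxorubicin library (0.38; adjusted p = 0.0542). In the authors' deposited table CDKN2D had adjusted p = 0.0546 in the first of these comparisons and 0.0551 in the second. Per length, the ratio of CDKN2D to CDKN2C was 0.301 to 0.387 without 1035 and 0.472 to 0.619 with it. The sum of both was 24.6 to 29.5 CPM per kilobase without 1035 and 25.7 to 27 with it, so these ranges overlapped.

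CDKN1B measured 85.6 and 87.0 CPM in DMSO, 90.4 and 91.1 in 1035, 85.1 and 77.0 in doxorubicin, and 98.0 and 92.9 in the combination. Both doxorubicin libraries lay below both DMSO libraries, and both combination libraries above both 1035 libraries. Of the 4 comparisons that differ by the presence of 1 drug, some also in length of exposure, 3 did not pass. The log2 fold change was 0.07 ± 0.07 for 1035 against DMSO (adjusted p = 0.378), -0.09 ± 0.07 for doxorubicin (adjusted p = 0.615) and 0.07 ± 0.07 for doxorubicin after 1035 (adjusted p = 0.929). The difference between the responses to doxorubicin with and without 1035 was 0.16 ± 0.09 (adjusted p = 0.952, unadjusted p = 0.0949).

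In the comparison of these that passed, combination against doxorubicin, CDKN1B was 1.17-fold higher (log2 fold change 0.23 ± 0.07; adjusted p = 0.00375), and without the first combination library it missed the threshold (adjusted p = 0.0673). In the authors' deposited table its adjusted p here was 0.066. Between combination and DMSO it did not pass (0.15 ± 0.07; adjusted p = 0.0629), but it passed with only the libraries of these 2 groups (0.0211), with the minimum mean count raised to 50 (0.00991), and without the first (0.037) or the second (0.0295) doxorubicin library. CDKN1B, CDKN2C and CDKN2D together summed to 54.1 to 59.9 CPM per kilobase without 1035 and 57.9 to 61.0 with it, so their summed level overlapped.

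Within the RB family, RB1 and RBL1 fell and RBL2 did not pass. RB1, which binds the activating E2F factors, measured 262.9 and 260.5 CPM in DMSO, 216.6 and 207.3 in 1035, 257.8 and 271.3 in doxorubicin, and 211.4 and 207.6 in the combination. The 4 libraries given 1035 were all lower. The log2 fold change was -0.30 ± 0.06 after 1035 (adjusted p = 2.68e-05) and -0.34 ± 0.06 in the combination against doxorubicin (adjusted p = 6.61e-06).

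RBL1 encodes p107, which is itself made under E2F control and rises in dividing cells. It measured 156.4 and 157.2 CPM in DMSO, 121.3 and 116.9 in 1035, 158.2 and 150.7 in doxorubicin, and 125.7 and 115.0 in the combination. Again the libraries with and without 1035 did not overlap. RBL1 fell by 0.40 on the log2 scale after 1035 (SE 0.06; adjusted p = 8.91e-07) and by 0.36 in the combination against doxorubicin (SE 0.06; adjusted p = 5.83e-06).

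The RBL1 promoter is shown for its E2F motif. The match is a description of the sequence. No E2F binding was measured, and a link between the motif and the fall of RBL1 was not tested. The 250 bases before its start (RefSeq, GRCh38.p14, chr20:37095998-37096247, minus strand) hold TTTGGCGC, in capitals, 16 to 9 bases before the start.

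RBL1: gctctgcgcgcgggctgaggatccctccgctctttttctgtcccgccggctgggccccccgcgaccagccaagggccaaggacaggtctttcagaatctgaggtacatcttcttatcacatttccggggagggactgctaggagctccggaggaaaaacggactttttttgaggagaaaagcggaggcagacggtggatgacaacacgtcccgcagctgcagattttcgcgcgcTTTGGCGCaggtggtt

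Of the 35116 windows, 0.55% held TTTGGCGC and 1.39% the related E2F motif TTTCCCGC, on either strand. The other motifs searched on both strands were the cell cycle motif CHR (TTTGAA, in 13.3% of windows) and the forkhead motif GTAAACA (2.98%), and no motif searched contains another. Among the 15 windows of the 9 members that had an entry, the only other matches were an E-box in 2 of the 3 windows of CDKN2C. Starts outside this set were not searched. RB1 had 1 window (chr13:48476200-48476449, 36.8% GC), so the lack of a match there does not cover any other RB1 start.

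RBL2 encodes p130, the family member that is most abundant in resting cells. It measured 180.9 and 179.1 CPM in DMSO, 180.0 and 174.5 in 1035, 179.9 and 170.5 in doxorubicin, and 176.4 and 175.2 in the combination. All 8 libraries lay between 170.5 and 180.9 CPM, the ranges with and without 1035 overlapped, and the log2 fold change after 1035 was -0.02 ± 0.06 (adjusted p = 0.782). Per length, RBL1 was above RBL2 in all libraries without 1035 (ratio 1.09 to 1.12) and below it in all libraries with 1035 (0.830 to 0.901). In plain counts RBL1 was below RBL2 in all 8 libraries. The log2 ratio was -0.2103 to -0.1788 without 1035 and -0.6069 to -0.4888 with it. The log2 ratios per length and from plain counts differ by a constant, so the fall is the same in both and plain counts are no check of it. The crossing rests on the implied lengths. RBL2 made up 24.6% to 25.9% of the summed family without 1035 and 29.7% to 30.5% with it, RBL1 27.5% to 28.8% and 25.3% to 26.8%, and RB1 45.3% to 47.8% and 43.5% to 44.2%. The sum of the 3 genes fell from 91.8 to 92.8 down to 76.1 to 79.3 CPM per kilobase.

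In DMSO the order of the levels per kilobase was CDK6 (128.9 ± 0.243, SD, n = 2), CCND3 (66.1 ± 4.79), CDK4 (48.7 ± 0.366), RB1 (42.4 ± 0.278), CDKN1B (30.7 ± 0.343), RBL1 (26.3 ± 0.100), RBL2 (23.9 ± 0.169), CDKN2C (21.7 ± 0.706), CDKN2D (6.87 ± 0.705) and CCND2 (0.407 ± 0.0150). Each neighbouring pair differed by more than the sum of its SDs, although an error in an implied length would shift a gene in this order. After 1035, RBL2 (23.5 ± 0.517) stood above RBL1 (20.0 ± 0.522), and the levels of CDK4 (38.5 ± 1.48) and RB1 (34.3 ± 1.07), and of RB1 and CDKN1B (32.2 ± 0.177), came closer together. In the combination RB1 (33.9 ± 0.440) and CDKN1B (33.9 ± 1.28) did not differ beyond their spread.

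Genes annotated within or across members can share reads with them where strand is not counted, and the strand setting is unknown. LPAR6, on the opposite strand inside RB1, rose from 32.8 to 36.7 CPM without 1035 to 68.0 to 81.7 with it (log2 fold change 1.07 ± 0.08; adjusted p = 8.32e-14), whereas RCBTB2, also opposite to RB1, fell by 0.50 (SE 0.09; adjusted p = 2.45e-05). AC002454.1, opposite to CDK6, fell by 0.74 (SE 0.12; adjusted p = 1.79e-06). MARCH9, which overlaps CDK4 on the opposite strand, rose by 0.53 (SE 0.11; adjusted p = 0.000194) while CDK4 fell, and AKTIP, opposite to RBL2, rose by 0.61 (SE 0.12; adjusted p = 4.01e-05). TSPAN31, opposite to CDK4, did not pass (0.12; adjusted p = 0.387), but was higher in the combination against doxorubicin (0.38; adjusted p = 0.00652). Genes on the same strand can share reads under either setting. RPS3AP3, which overlaps RBL1 (0.969 to 1.72 CPM without 1035), and AC007342.1, which overlaps RBL2 (0.485 to 1.85 CPM), did not pass in 1035 against DMSO. The part of overlapping reads in the values of RB1, RBL1, CDK6, CDK4 and RBL2 was not tested.

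The same genes were next followed with doxorubicin present. In the combination against doxorubicin, CCND2, CDKN1B and CDKN2D were higher (3 of 10, against 21.8% of all genes) and CCND3, CDK4, CDK6, CDKN2C, RB1 and RBL1 were lower (6 of 10, against 22.0% of all genes). The median log2 fold change of the members was -0.22, against 0.00 over all genes. In the combination against DMSO, which shares its controls with the comparison of 1035, 2 members were higher (24.5% of all genes) and 5 lower (24.7% of all genes), CCND2 by 2.17 ± 0.18 and CCND3 by -0.71 ± 0.06 on the log2 scale.

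Doxorubicin by itself changed no member past the test. Against DMSO, 0 of 10 were higher (0.784% of all genes) and 0 lower (0.545% of all genes) in edgeR, 2 had an unadjusted p under 0.05, and DESeq2 called 0. The 2 were CCND3 (log2 fold change -0.13 ± 0.06, adjusted p = 0.346) and CDKN2C (-0.19 ± 0.07, adjusted p = 0.193). CCND2 stood at 0.31 ± 0.22 (adjusted p = 0.588), and at -0.04 without the second doxorubicin library. Without the first doxorubicin library CDK6 passed as higher (0.26; adjusted p = 0.00382).

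Doxorubicin after 1035, against 1035, also left 0 members higher (0.349% of all genes) and 0 lower (0.147% of all genes) in edgeR and in DESeq2, with 1 unadjusted p under 0.05. This was CCND3 (log2 fold change -0.16 ± 0.06; adjusted p = 0.505). The interaction, that is, the effect of doxorubicin with 1035 minus that without, passed for 0 members in either direction in edgeR and in DESeq2 (0.0184% of all genes higher and 0% lower), and no unadjusted p was under 0.05. For CCND2 it was -0.16 ± 0.26 and for CCND3 -0.03 ± 0.09, so with 2 libraries per group a modest difference in the response of CCND2 would not be detected. CDKN1A, the p53-induced inhibitor p21, is not a member. It passed as higher in doxorubicin against DMSO (log2 fold change 0.57 ± 0.06; adjusted p = 1.7e-08) and in the combination against 1035 (0.61 ± 0.06; adjusted p = 1.45e-09), and not in the interaction (0.03 ± 0.08; adjusted p = 0.987). CDKN1A measured 192.7 and 186.1 CPM in DMSO, 228.1 and 236.7 in 1035, 289.3 and 273.1 in doxorubicin, and 354.7 and 352.3 in the combination.

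**Figure D3:**
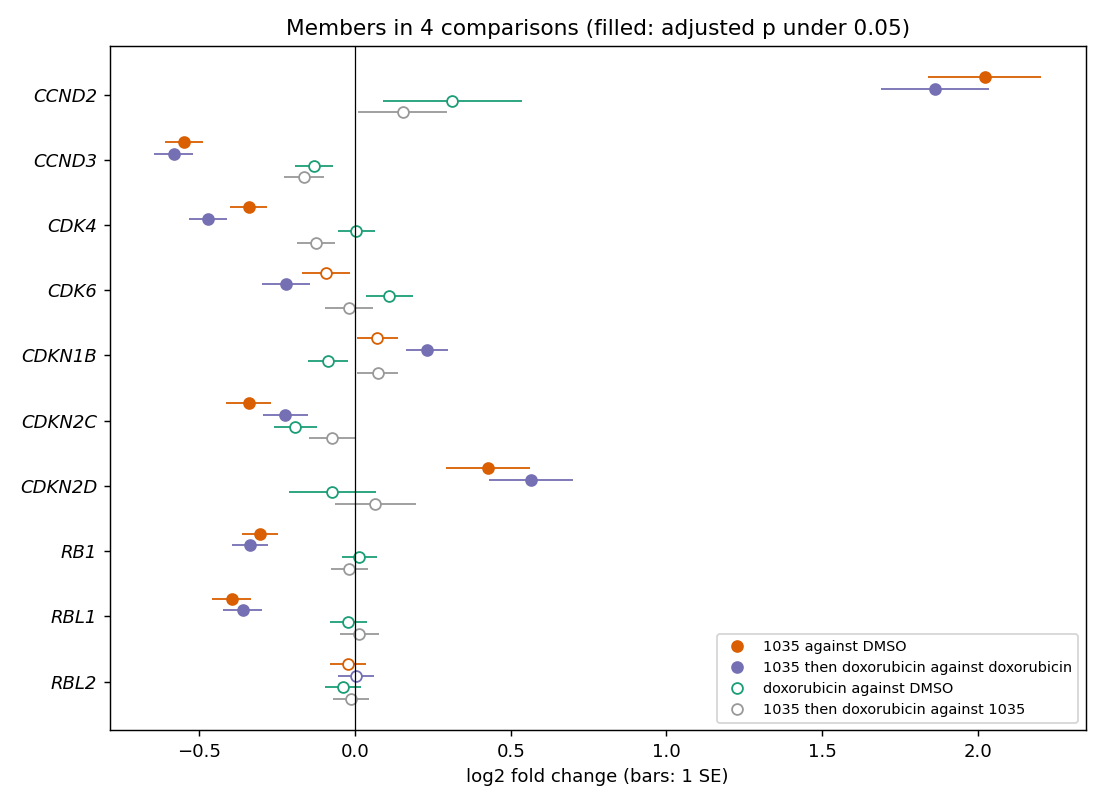
Log2 fold change of each member in 4 comparisons, with bars of 1 SE, filled where the adjusted p (edgeR) was under 0.05. In both comparisons of cells with and without 1035, CCND2 lies near 2 and CCND3 near -0.6, and in both comparisons of doxorubicin all points are open.

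The genes around the members were examined in lists in 1035 against DMSO, where 24.2% of all genes tested were higher and 24.8% lower. The lists share genes. CCNE1, CCNE2, CCNA2 and CDC25A are in the lists of E2F targets and of other G1 cyclins and kinases. E2F1 and E2F2 are in those of E2F targets and of E2F factors. Of 20 E2F target genes, 18 fell, 0 rose and CCNE1 and POLA1 did not pass, with a median log2 fold change of -0.51 against 0.01 over all genes. CCNE2, the cyclin that follows the D cyclins, had -1.07 ± 0.07, RRM2, which makes deoxynucleotides, -0.87 ± 0.06, and MCM7, part of the replicative helicase, -0.77 ± 0.06. Of 10 E2F and DP factors, 7 fell, 1 rose and 2 did not pass (median -0.32). E2F8 (-1.19 ± 0.08), a repressor made in S phase, and the activators E2F2 (-0.71 ± 0.07) and E2F1 (-0.44 ± 0.06) fell, and TFDP2 (0.29 ± 0.07), a partner of E2F proteins, rose.

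The DREAM complex joins RBL1 or RBL2 to E2F4 and the MuvB core. Of 8 genes of this list, 6 fell, 1 rose and 1 did not pass (median -0.32). MYBL2 (-0.81 ± 0.07), which takes the place of RBL2 on MuvB, LIN9 (-0.73 ± 0.08), a core subunit, and DYRK1A (-0.38 ± 0.06), the kinase that assembles the complex, fell, and LIN37 (0.40 ± 0.14) rose. The list of E2F factors includes E2F4, which did not pass (-0.07 ± 0.07; adjusted p = 0.386).

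Genes of protein turnover and of the other kinases went both ways, and the shares that rose and fell in the turnover list were near those of all genes. Of 13 genes that act on the stability of D cyclins or p27, 3 rose, 4 fell and 6 did not pass (median -0.02). SKP2 (-0.24 ± 0.06), the receptor that marks p27 for degradation, and the scaffolds CUL1 (-0.37 ± 0.06) and CUL4A (-0.38 ± 0.06) fell, and AMBRA1 (0.21 ± 0.07), the receptor that marks D cyclins, FBXO31 (0.27 ± 0.07) and USP7 (0.15 ± 0.06) rose. Of 10 other G1 cyclins and kinases, 3 rose, 3 fell and 4 did not pass (median -0.01). The 3 that fell are also among the E2F targets. CDC25A (-0.72 ± 0.06), a phosphatase that activates cyclin-dependent kinases, fell with CCNE2, and CDC37 (0.80 ± 0.06), the chaperone that folds CDK4, rose while CDK4 itself fell. Of the 5 other inhibitors CDKN1A rose (0.29 ± 0.06) and CDKN3 did not pass (0.05 ± 0.09). CDKN2A and CDKN2B had no entry under these symbols in the authors' data, and CDKN1C did not have counts in all libraries, so these were not analysed.

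Of 15 factors described upstream of the members, 6 rose, 4 fell and 5 did not pass (median -0.06), with the share that fell near the 24.8% of all genes. BCL6 (0.77 ± 0.09), a repressor known to act on CCND2 in B cells, rose together with CCND2. ID3 (0.34 ± 0.06), an inhibitor of E proteins, and IKZF1 (0.34 ± 0.06), the lymphoid factor Ikaros, rose too. Others of this list went the other way. ID2 had a mean of 18.1 CPM in DMSO and 12.4 in 1035, and MYC fell as given above. In doxorubicin against DMSO, 2 of the 20 E2F targets fell (CCNE2, -0.28 ± 0.06, and MCM2, -0.23 ± 0.06), where 0.545% of all genes were lower, and no E2F, DREAM, turnover or upstream gene passed in edgeR.

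**Figure D4:**
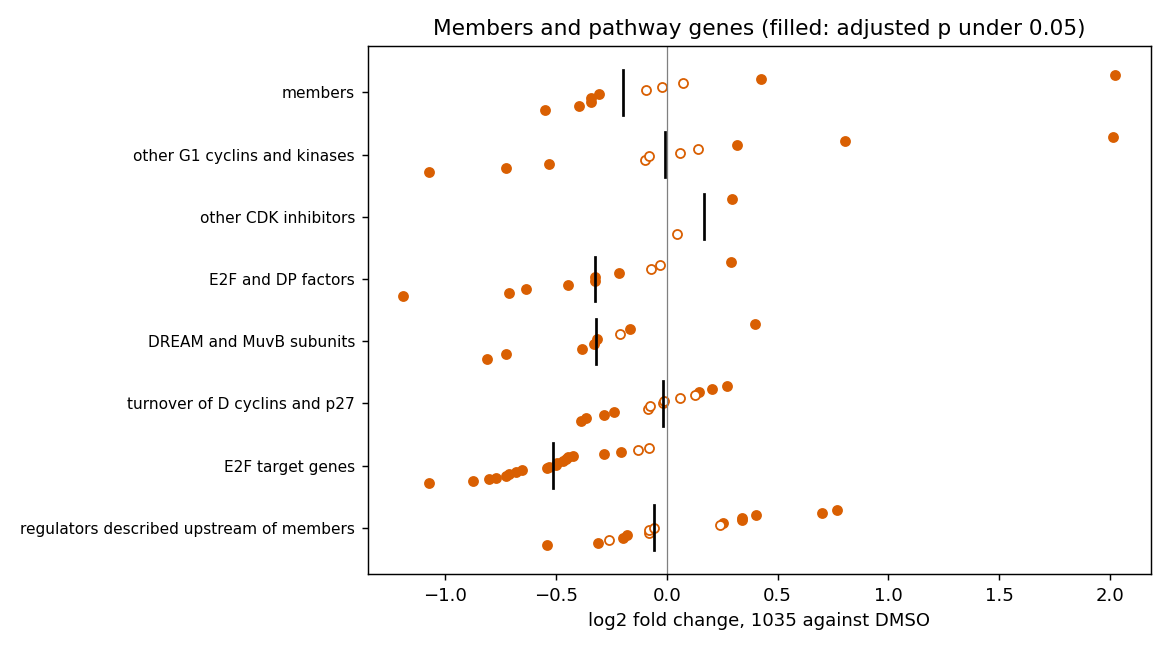
Log2 fold change in 1035 against DMSO of each tested gene of the members and of 7 lists, filled where the adjusted p (edgeR) was under 0.05, with the list median as a black bar. The E2F targets lie below 0 (median -0.51), and the members run from -0.55 (CCND3) to 2.02 (CCND2).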

How the data were processed

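Total RNA was sequenced from 8 libraries of SupB15 cells, 2 for each of 4 treatments. Per the labels' protocols, a strand-specific TruSeq kit with rRNA depletion was used, with single-end sequencing. Per the submitters' processing notes, Novoalign 2.08.01, the build hg19 and DESeq2 1.4.5 were used; the sources used here do not name the read counter, its strand setting or the annotation. The authors deposited 4 tables of raw counts per gene with FPKM values, per the file headers. The deposited log2 fold changes and adjusted p-values are those of the authors. FPKM served only to recover gene lengths (spread of at most 0.3% between libraries), and sequences are from RefSeq.

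Tables were joined by identifier. All 132880 counts held by several tables were equal, and 16608 of 17849 genes had counts in all libraries. filterByExpr of edgeR 4.0.16 (R 4.3.3) removed 288. TMM-normalised counts of all 8 libraries were fitted with the robust quasi-likelihood model (4 group means, 4 residual degrees of freedom, two-sided F-test), adjusted by Benjamini-Hochberg over 16320 genes at an FDR of 0.05, and tested on simulated data. The DESeq2 alternative used version 1.42.0. The model moderated each gene's variance towards a value shared across genes, with a median of 35.6 prior degrees of freedom against 4 residual. Each p-value thus draws on other genes as well as on the differences among the libraries of that gene. The series' design text calls the 2 samples of a treatment independent without saying how. Variation beyond these 8 libraries is therefore not covered by the p-values. Deviations of same-numbered libraries correlated by -0.161 to 0.022, so numbers were not taken as pairs. All 10 members are described; from each pathway list the text names up to 3 genes with the smallest p and those that moved against most of the list. CCND1, MYC, ID2, E2F4, MCM2 and the genes overlapping members were named outside this rule, after their values were seen. Nearness of profile used log2(CPM + 0.1). Members and lists were chosen with earlier results of these data known.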

Additional observations from a re-analysis of the deposited data

How the results depend on the processing

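Of 60 values (10 members in 6 comparisons), 23 passed the test, and 18 of these passed under all 14 alternatives that could be fitted. The 5 others were CDKN2D after 1035 and CDK6, CDKN1B, CDKN2C and CDKN2D in the combination against doxorubicin, with the values given above. None of the 23 changed direction. Of the 37 values that did not pass, 34 passed under no alternative. The number of members higher in 1035 against DMSO was 2, but 1 with DESeq2 and 1 to 2 with single libraries left out (1 without the second DMSO or the second 1035 library), and the number higher in doxorubicin against DMSO was 0 to 1 with single libraries left out. CDK6 in the combination against DMSO passed with only the libraries of these groups (adjusted p = 0.0354). A fit with the replicate block gave each count as reported, with 2 higher and 5 lower in 1035 against DMSO, and it changed no call. The crossed pairing of DMSO and 1035 libraries, chosen after seeing the data, gave 2 higher and 5 lower. Where a library left out leaves a group with 1 sample, that sample is assumed to vary like the other groups.

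Differences that did not pass changed sign with single libraries left out, with these log2 ranges. 1035 against DMSO: RBL2 -0.0445 to 0.0003. Doxorubicin against DMSO: CCND2 -0.0361 to 0.6795, CDK4 -0.0339 to 0.0418, CDK6 -0.0597 to 0.261, CDKN2D -0.239 to 0.1169, RB1 -0.0244 to 0.0516, RBL1 -0.0579 to 0.0103. Combination against 1035: CDK6 -0.0589 to 0.0244, CDKN2D -0.0911 to 0.2269, RB1 -0.048 to 0.0153, RBL1 -0.0495 to 0.0769, RBL2 -0.0339 to 0.0108. Combination against doxorubicin: RBL2 -0.0269 to 0.0445. Interaction: CCND2 -0.5256 to 0.1906, CCND3 -0.1132 to 0.0419, CDK6 -0.279 to 0.0424, CDKN2D -0.0508 to 0.3057, RB1 -0.0688 to 0.0078, RBL1 -0.0296 to 0.0971, RBL2 -0.0077 to 0.0662. With the minimum mean count raised to 50, RBL2 was 0.0251 in 1035 against DMSO, 0.0076 in the combination against DMSO and -0.0001 in the interaction, and in the combination against doxorubicin it was -0.0017 with DESeq2 size factors and -0.0018 with DESeq2. The cause was not tested. Ratios of CCND2 to CCND3 from plain counts differ from those per length by a constant. Depth limits CCND2 most, at 43 to 175 reads per library.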
